A study of Mus musculus with 15 samples.

Results

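Axon guidance ligands and receptors were followed in mouse fibroblasts of 5 sources, measured on 15 Agilent arrays with 2 dyes. The members were the genes of the semaphorin, plexin, ephrin, Eph receptor, Slit and Robo families that carry a number after the family name on the array, with the netrins Ntn1 and Ntn4 and the netrin receptors Dcc, Unc5a, Unc5b and Unc5c. They were taken by a rule on names, chosen with earlier results of these data known. They came to 56 of the 33627 gene and probe names on the array, or 75 of 41174 probes. The brightest probe stood for each gene, and 19 members had several probes. The series concerns fibroblasts of tumours refractory to treatment against VEGF, and TAF is read from its title as tumour-associated fibroblast. The labels call NSF and TAF-tib6 sensitive and the other sources, TAF-tib42, TAF-tib48 and TAF-el4, resistant. Each source had 3 arrays, so that 9 arrays were of resistant and 6 of sensitive sources. The meaning of NSF, the genotype, strain, age and treatment of the animals, and whether cultures were separate for the 3 arrays, are not given in the sources used here. The arrays may thus be technical repeats, and p-values between sources rest on the spread among them. Fibroblast RNA was labelled with Cy5 and a common mouse reference RNA with Cy3 throughout, with no dye swap. All levels given are log2 ratios of Cy5 to Cy3, and a difference of 1 between sources is a 2-fold difference.

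These families guide growing axons and also steer the movement and adhesion of other cells, blood vessel cells and fibroblasts among them. Ephrins are membrane-bound ligands of Eph receptor tyrosine kinases, and signal passes into both touching cells. Semaphorins act through plexins, often with neuropilins as co-receptors, Slits act through Robo receptors, and netrins act through Dcc and the Unc5 receptors.

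Epha4, Efna5, Efnb2 and Epha1 were among the 5 members with the widest range over the sources, and all fell in TAF-tib42 and TAF-tib48 against both NSF and TAF-tib6. For that reason the 250 bases before their annotated starts are shown, 5′ to 3′ on the strand of the gene, from RefSeq (GRCm38.p6, whose coordinates belong to these sequences and not to the probes). All 4 genes lie on the minus strand, Epha4 at chr1:77515089-77515338, Efna5 at chr17:62881318-62881567, Efnb2 at chr8:8661243-8661492 and Epha1 at chr6:42373269-42373518. Capitals mark matches on either strand to 5 motifs, namely GGGCGG (the GC box), CCAAT (the CCAAT box), TATAAA (the TATA box), TGACGT (the core of a cAMP response element) and CACGTG (an E-box). Overlapping matches to different motifs share their capitals.
Epha4: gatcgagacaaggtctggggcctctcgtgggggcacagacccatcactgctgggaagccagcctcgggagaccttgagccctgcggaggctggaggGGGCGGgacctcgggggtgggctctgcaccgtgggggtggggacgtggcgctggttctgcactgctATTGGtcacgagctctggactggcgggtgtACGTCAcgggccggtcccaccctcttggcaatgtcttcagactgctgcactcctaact
Efna5: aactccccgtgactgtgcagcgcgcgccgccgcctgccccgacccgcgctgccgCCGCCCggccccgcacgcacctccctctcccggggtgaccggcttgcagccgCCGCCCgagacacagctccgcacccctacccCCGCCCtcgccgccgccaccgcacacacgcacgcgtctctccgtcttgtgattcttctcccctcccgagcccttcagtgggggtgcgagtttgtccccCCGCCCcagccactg
Efnb2: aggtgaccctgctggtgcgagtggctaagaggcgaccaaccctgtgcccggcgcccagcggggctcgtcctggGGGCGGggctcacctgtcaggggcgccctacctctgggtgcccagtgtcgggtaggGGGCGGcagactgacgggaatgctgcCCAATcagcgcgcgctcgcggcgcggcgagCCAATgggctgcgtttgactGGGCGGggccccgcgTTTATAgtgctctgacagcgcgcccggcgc
Epha1: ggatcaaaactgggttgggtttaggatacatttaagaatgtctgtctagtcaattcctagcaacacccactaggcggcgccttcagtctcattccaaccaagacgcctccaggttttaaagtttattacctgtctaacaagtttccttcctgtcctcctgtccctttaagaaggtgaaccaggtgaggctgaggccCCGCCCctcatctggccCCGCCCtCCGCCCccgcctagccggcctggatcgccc
The Efna5 stretch held 4 matches to GGGCGG and the Epha1 stretch 3, and neither held a match to the other motifs. The Efnb2 stretch held 3 matches to GGGCGG, 2 to CCAAT and 1 to TATAAA. The Epha4 stretch held 1 match to GGGCGG, 1 to CCAAT and 1 to TGACGT. The G and C share of the bases was 66% for Epha4, 74.8% for Efna5, 72% for Efnb2 and 54.4% for Epha1. GGGCGG occurred in 32.7% of the 32851 RefSeq windows of this length, CCAAT in 33.8%, TATAAA in 12.4%, TGACGT in 6.47% and CACGTG in 6.02%. Of the members, 47 matched the table with 60 windows, of which 66.7% held GGGCGG, 31.7% CCAAT, 3.33% TATAAA, 6.67% TGACGT and 6.67% CACGTG. A match is a description of the letters and not of a bound site.

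Of 55 members tested, 30 differed between the 5 sources by limma's F-test (adjusted p under 0.05), or 54.5%, where 43.0% of all 31325 genes tested did. The source means of 5 members lay at least 2-fold apart together with such a call, or 9.09% of the members, against 2.25% of all genes. These were Epha4, Efna5, Epha1, Efnb2 and Sema3c. By family, 11 of 18 semaphorins, 3 of 6 plexins, 3 of 7 ephrins, 8 of 13 Eph receptors, 1 of 2 Slits, 2 of 4 Robo receptors, 0 of 2 netrins and 2 of 3 tested netrin receptors were called. Dcc was not tested, since its Cy5 signal was well above background on no more than 2 of 3 arrays of any source. Sema3d passed this filter in TAF-tib42 alone. The signal was low for a further group: 12 members (Sema3d, Plxna4, Plxnc1, Efna2, Epha3, Epha5, Epha7, Ephb6, Robo2, Ntn1, Ntn4 and Dcc) had a background-subtracted Cy5 signal under 100 in every source, and 3 of these were called. In bulk RNA, fewer cells that express a gene and less RNA per cell cannot be told apart.

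**Figure D1:**
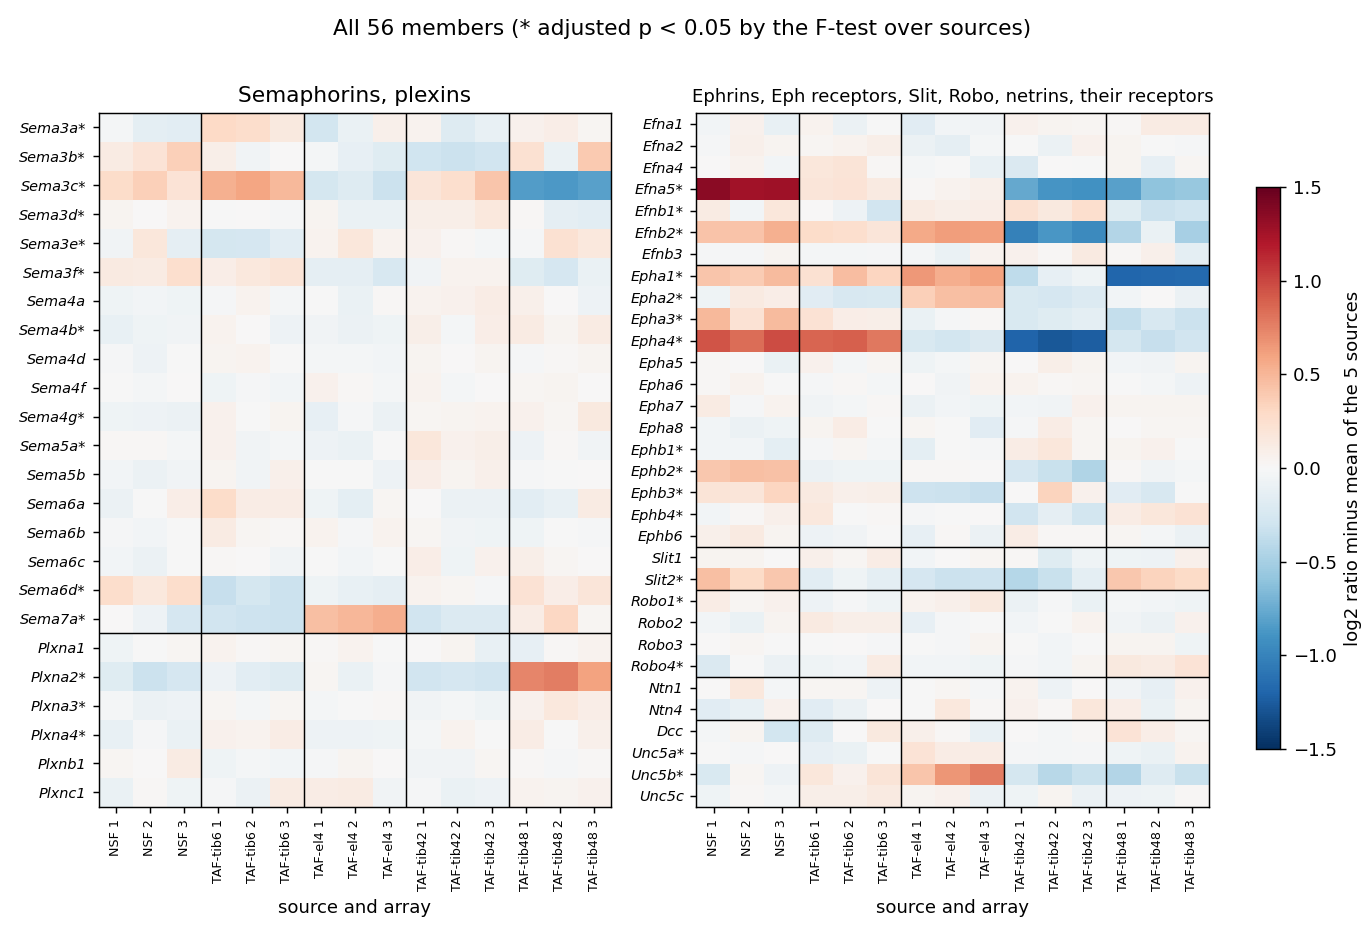
Heat map of the log2 ratio of each member on each of the 15 arrays, less the mean of its 5 source means, with 1 row per gene, black lines between families and between sources, and an asterisk at members with an adjusted p under 0.05 by the F-test. Strong colours are limited to a few rows, chiefly Efna5, Efnb2, Epha1, Epha4, Sema3c, Sema7a, Plxna2 and Unc5b, while most rows stay near white in every source.

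Array quality and cell identity were as follows. Median Cy5 signal per array was 174.7 to 285.9 over a background of 52 to 56. The correlation over genes was 0.960 to 0.988 for a pair of arrays from the same source and 0.842 to 0.949 for a pair from different ones. The slide barcodes fall in 3 runs of consecutive numbers: NSF lies in the first, TAF-tib42 in the second and TAF-tib6 in the third, TAF-el4 in the first and second, and TAF-tib48 in the second and the third. When slide run was added as a block, 20 of the 30 F-test calls of members stood, and 9651 instead of 13458 of all genes were called. All 10 fibroblast markers checked, Col1a1, Col1a2, Col3a1, Pdgfrb and Vim among them, were above background in every source, and 7 were called by the F-test. The same held for all 7 neuron, 6 Schwann cell, 6 macrophage and 5 T lymphocyte markers on the array. Of all Cy5 features 89.7% to 95.8% per array were well above background. Being above background thus does not tell cell types apart here. Dcn, a matrix proteoglycan, had source means of -0.01 in NSF, -1.31 in TAF-tib6, -3.03 in TAF-el4, -2.82 in TAF-tib42 and -2.76 in TAF-tib48, so that it was lower in the resistant sources, and its part in the values of the members was not tested. Of 8 endothelial markers 3 were called by the F-test, and Emcn, a sialomucin of vessel endothelium, was 1.79 (log2) higher in TAF-tib48 than in TAF-tib6 (SE 0.06, adjusted p = 4.0e-13), with Cdh5 0.73 higher. The third, Tek, was also highest in TAF-tib48, at 0.57 against 0.11 to 0.40 elsewhere. The summed Cy5 signal of the 8 markers was 1890 in TAF-tib48 and 1090 to 1160 in the other sources, whereas Pecam1, Kdr, Cldn5, Tie1 and Vwf had no call. The part of such cells in the values of TAF-tib48 was not tested. Of 5 pericyte and smooth muscle markers 3 were called, with different patterns. Mcam, a surface protein of pericytes, was 1.37 in NSF and 1.28 in TAF-tib48 against 0.27 in TAF-tib6, 0.60 in TAF-el4 and 0.53 in TAF-tib42. Cspg4 was highest in TAF-tib42 at 0.72 and lay at 0.04 in NSF. Rgs5 was highest in TAF-tib48 at 0.43 and lowest in NSF at 0.15. The fibroblast marker Pdgfra was 1.30 in NSF, 0.96 in TAF-tib6, 0.26 in TAF-el4, 0.51 in TAF-tib42 and -0.11 in TAF-tib48. Its second probe spanned only 0.13, from 0.01 in TAF-el4 to 0.14 in NSF. S100a4, another fibroblast marker with a call, had higher source means in the resistant sources, though TAF-tib42 was not called higher than NSF. It was -0.39 in NSF, -0.71 in TAF-tib6, 0.06 in TAF-el4, -0.27 in TAF-tib42 and 0.23 in TAF-tib48. Of markers of nerve tissue, 3 of 7 neuron and 3 of 6 Schwann cell markers tested were called, none of them at least 2-fold apart.

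Among the Eph receptors Epha4 set the sources furthest apart. Epha4 binds ephrins of both the A and the B type. Its log2 ratios were 2.45, 2.34 and 2.49 on the NSF arrays and 2.37, 2.40 and 2.29 on the TAF-tib6 arrays. They were 1.27, 1.23 and 1.29 in TAF-el4, 0.31, 0.23 and 0.27 in TAF-tib42, and 1.25, 1.15 and 1.22 in TAF-tib48. Each array of a resistant source thus lay below each array of a sensitive source, and TAF-tib42 lay below all others, with no overlap. Against TAF-tib6, Epha4 fell in all 3, with differences of -1.09 in TAF-el4 (SE 0.05, adjusted p = 1.4e-11), -2.09 in TAF-tib42 (adjusted p = 6.0e-16) and -1.15 in TAF-tib48 (adjusted p = 3.2e-12). Against NSF the differences were -1.16, -2.16 and -1.22 in the same order, all called. With the mean of both its probes they were -0.79, -1.38 and -0.81, all called. The 2 sensitive sources differed by -0.07, without a call. A second Epha4 probe was also highest in NSF and TAF-tib6 and lowest in TAF-tib42, with smaller steps, at 0.75 in both NSF and TAF-tib6, 0.33 in TAF-el4, 0.14 in TAF-tib42 and 0.36 in TAF-tib48. Within a single slide run, Epha4 differed by -1.18 between TAF-el4 and NSF (adjusted p = 2.2e-06) and by -1.17 between TAF-tib48 and TAF-tib6 (adjusted p = 2.9e-06).

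Efna5, an A-type ephrin held in the membrane by a lipid anchor, was high in NSF alone. Its log2 ratios were 0.03, -0.07 and -0.07 in NSF and -1.15, -1.13 and -1.20 in TAF-tib6. They were -1.31, -1.28 and -1.25 in TAF-el4, -2.10, -2.22 and -2.25 in TAF-tib42, and -2.15, -1.93 and -1.91 in TAF-tib48. TAF-tib42 and TAF-tib48 overlapped and lay lowest, and TAF-tib6 and TAF-el4 lay between them and NSF. Against NSF, Efna5 fell everywhere, with differences of -2.15 in TAF-tib42 (SE 0.06, adjusted p = 8.6e-15), -1.96 in TAF-tib48 (adjusted p = 3.2e-14), -1.24 in TAF-el4 (adjusted p = 5.3e-11) and -1.12 in the sensitive TAF-tib6 (adjusted p = 2.4e-10). Against TAF-tib6 it differed by -1.03 in TAF-tib42 and by -0.83 in TAF-tib48, both called, and by -0.12 in TAF-el4, without a call. The files describe this probe as transcript variant 1. The second probe, described as variant 2, lay between -0.02 and 0.11 in the 5 sources, a range of 0.13. With the mean of both probes the difference from NSF was -1.09 in TAF-tib42, -0.996 in TAF-tib48, -0.58 in TAF-el4 and -0.55 in TAF-tib6, all called. Efna1, the A-type ephrin first found in endothelium, had no F-test call and source means from -0.57 to -0.40, and Efna2 and Efna4 had none either.

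Epha1 fell in the resistant sources TAF-tib42 and TAF-tib48 but not in TAF-el4. It is a receptor of A-type ephrins known chiefly from epithelia. Its log2 ratios were 1.68, 1.65 and 1.75 in NSF, 1.50, 1.73 and 1.59 in TAF-tib6, and 1.92, 1.81 and 1.88 in TAF-el4. They were 0.89, 1.15 and 1.21 in TAF-tib42 and 0.08, 0.09 and 0.10 in TAF-tib48. The TAF-el4 arrays were the highest and the TAF-tib48 arrays the lowest, without overlap with any other source. Against TAF-tib6, Epha1 differed by -1.51 in TAF-tib48 (SE 0.07, adjusted p = 1.6e-11) and by -0.52 in TAF-tib42 (adjusted p = 1.3e-05), and rose by 0.26 in TAF-el4 (adjusted p = 0.0093). The call in TAF-el4 was lost with slide run as a block (0.28, adjusted p = 0.36), with the Cy5 channel alone (0.14), without replicate 1 (0.18) and without replicate 3 (0.25). A single probe measured Epha1.

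**Figure D2:**
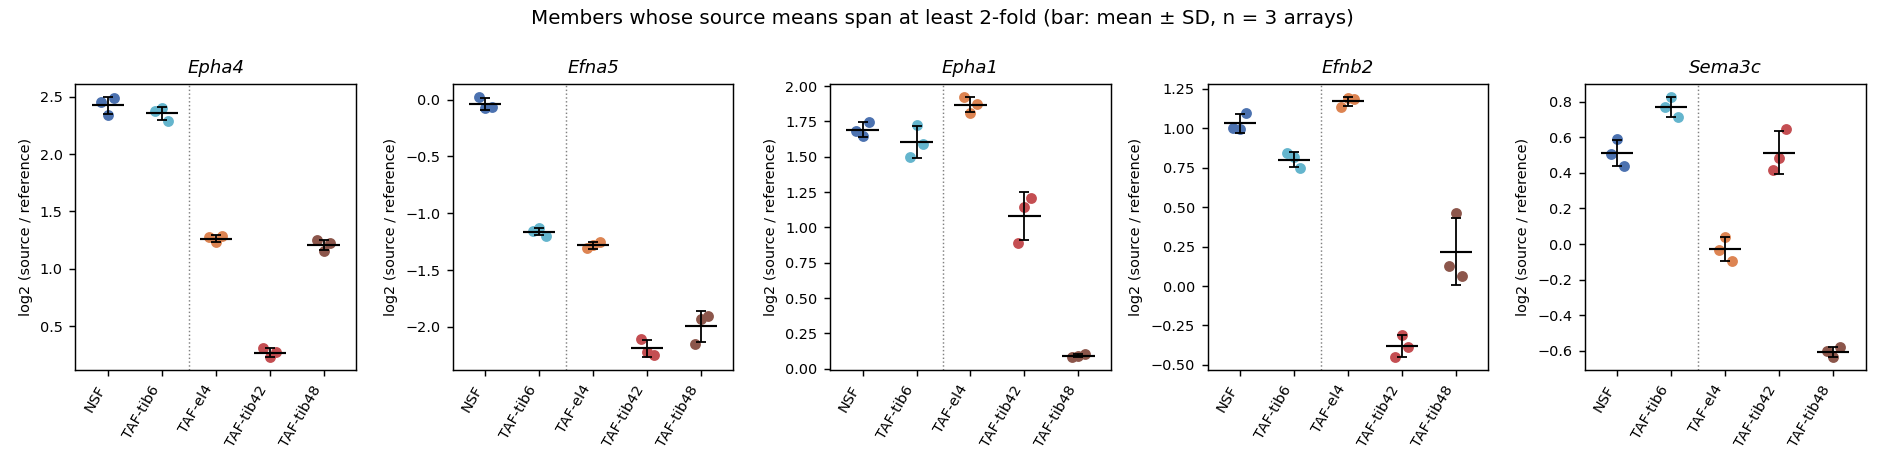
Log2 ratio to the reference (y axis) of Epha4, Efna5, Epha1, Efnb2 and Sema3c in the 5 sources (x axis; sensitive left of the dotted line, resistant right of it), with points for the 3 arrays and black bars for mean ± SD. The resistant sources lie below the sensitive ones for Epha4, and for Efna5 by a small step between TAF-tib6 and TAF-el4, while TAF-el4 stands with the sensitive sources for Epha1 and Efnb2.

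Efnb2, a transmembrane ephrin that marks arterial endothelium and acts on Ephb4, was lowest in TAF-tib42. The log2 ratios were 0.999, 0.99 and 1.10 in NSF, 0.84, 0.81 and 0.75 in TAF-tib6, and 1.14, 1.19 and 1.18 in TAF-el4. They were -0.45, -0.31 and -0.38 in TAF-tib42 and 0.13, 0.46 and 0.07 in TAF-tib48, so that neither overlapped with NSF, TAF-tib6 or TAF-el4. Against TAF-tib6, Efnb2 differed by -1.18 in TAF-tib42 (SE 0.07, adjusted p = 9.0e-10) and by -0.58 in TAF-tib48 (adjusted p = 1.0e-05). It rose by 0.37 in TAF-el4 (adjusted p = 0.0012), and differed there by 0.52 with slide run as a block (adjusted p = 0.066). Its dimmer second probe lay between -0.17 and -0.05 in all sources, a range of 0.12, and with the mean of both probes the differences from TAF-tib6 were -0.64 in TAF-tib42 and -0.31 in TAF-tib48. Ephb4, its main receptor, spanned 0.41: its source means were 0.17 ± 0.06 (SD, n = 3) in NSF, 0.21 ± 0.09 in TAF-tib6, 0.15 ± 0.01 in TAF-el4, -0.08 ± 0.09 in TAF-tib42 and 0.32 ± 0.05 in TAF-tib48. Ligand and receptor were thus both lowest in TAF-tib42. Ephb4 differed there by -0.29 from TAF-tib6 (adjusted p = 4.6e-04) and by -0.25 from NSF. Efnb1, also transmembrane, had source means of 2.30 to 2.78, and Efnb3 spanned 0.10 without a call.

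**Figure D3:**
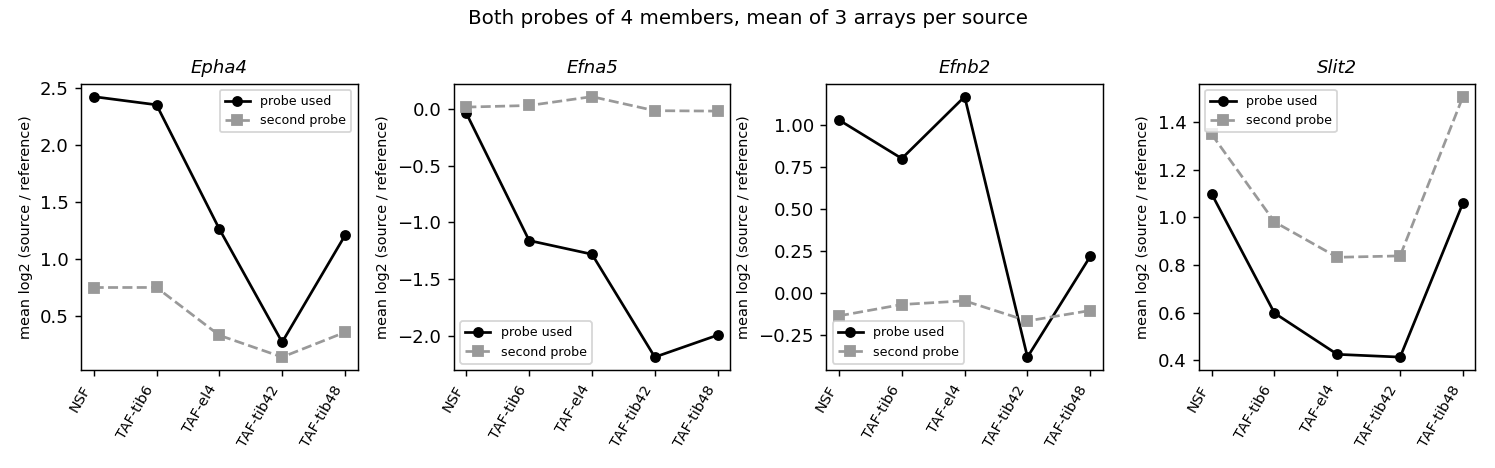
Mean log2 ratio over 3 arrays (y axis) in each source (x axis) for the probe used and the second probe of Epha4, Efna5, Efnb2 and Slit2. For Epha4 both probes lie lower in the resistant sources, and for Slit2 both are highest in NSF and TAF-tib48, while the second probe stays flat for Efna5, with a range of 0.13, and for Efnb2, with a range of 0.12.

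Smaller differences were called for 6 further Eph receptors. Epha2, the receptor most studied in tumour vessels, was highest in TAF-el4 at -0.46 ± 0.05 (SD, n = 3) and lay between -1.11 and -0.82 in the other sources. It rose in TAF-el4 by 0.63 against TAF-tib6 (SE 0.05, adjusted p = 4.3e-08) and by 0.36 against NSF (adjusted p = 2.7e-05), and differed by -0.29 in TAF-tib42 from NSF. Ephb2, a receptor of B-type ephrins, was highest in NSF at 1.06 ± 0.02 and lowest in TAF-tib42 at 0.28 ± 0.10. It fell against NSF in each other source, with differences of -0.42 in TAF-el4, -0.78 in TAF-tib42, -0.46 in TAF-tib48 and -0.51 in TAF-tib6. Its dim second probe spanned 0.18. Epha3 went down from 0.68 ± 0.15 in NSF over 0.42 in TAF-tib6, 0.25 in TAF-el4 and 0.10 in TAF-tib42 to -0.02 ± 0.06 in TAF-tib48. It was dim, and the size of its differences rested on the background correction: TAF-tib48 differed from NSF by -0.70, or by -3.03 with the scanner's own ratio, and both were called. Its second probe spanned 0.21, and the mean of both probes gave -0.37 for this comparison (adjusted p = 1.2e-05). Ephb3 was lowest in TAF-el4 at 0.46 ± 0.02, against 0.65 to 1.02 elsewhere. Ephb1 spanned 0.18, with the highest mean in TAF-tib42, and Ephb4 is given above. Epha5, Epha6, Epha7, Epha8 and Ephb6 had no F-test call and ranges of 0.07 to 0.14.

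Among the secreted semaphorins Sema3c differed most. It is a chemoattractant that acts through neuropilins and plexins. On the arrays it was 0.50, 0.59 and 0.44 in NSF, 0.77, 0.83 and 0.72 in TAF-tib6, and 0.41, 0.48 and 0.65 in TAF-tib42. They were -0.03, 0.04 and -0.10 in TAF-el4 and -0.60, -0.64 and -0.58 in TAF-tib48. TAF-tib42 overlapped with NSF, and TAF-el4 and TAF-tib48 lay below with no overlap. Against TAF-tib6, Sema3c differed by -1.38 in TAF-tib48 (SE 0.06, adjusted p = 4.6e-12), by -0.80 in TAF-el4 (adjusted p = 1.2e-08) and by -0.26 in TAF-tib42 (adjusted p = 0.0026). The last of these had an adjusted p of 0.15 with slide run as a block, 0.089 without replicate 1 and 0.065 without replicate 2. By the scanner's own ratio the difference of TAF-tib48 was -2.42 and that of TAF-el4 -1.29.

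Plexins and neuropilins are the receptors of these semaphorins. Plxna2, an A-type plexin, was high in TAF-tib48 alone: its log2 ratios there were 0.92, 0.96 and 0.79, and every other array lay between -0.14 and 0.21. It rose in TAF-tib48 by 0.84 against TAF-tib6 (SE 0.05, adjusted p = 1.0e-09) and by 0.95 against NSF (adjusted p = 1.2e-10), and the difference from TAF-tib6 was 0.83 within a single slide run. TAF-tib48 was also the source where the endothelial markers Emcn, Cdh5 and Tek were highest, and their part in this value was not tested. Plxna1 had no F-test call and source means of 0.08 to 0.14. Plxna3 and Plxna4 were called but spanned 0.17 and 0.15, and Plxna4 was dim. The neuropilin Nrp1, also a co-receptor of VEGF, was highest in NSF at 0.90 and lowest in TAF-tib42 at 0.37 (F-test adjusted p = 3.4e-06), whereas Nrp2 spanned 0.03 without a call.

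Sema3a, the collapsing factor of growth cones, was highest in TAF-tib6 at -1.07 ± 0.08 (SD, n = 3) and spanned 0.35. Sema3f, which acts chiefly through Nrp2, lay at 0.24 in NSF and 0.22 in TAF-tib6, against -0.10 in TAF-el4, 0.09 in TAF-tib42 and -0.11 in TAF-tib48. Its second probe spanned 0.74 and was also highest in the sensitive sources. Sema3b was highest in NSF at 0.69 ± 0.12 and lowest in TAF-tib42 at 0.15 ± 0.02. Sema3e, which acts on vessels through another plexin, was called with a range of 0.34 and was lowest in TAF-tib6. Sema3d, called by the F-test, was above background on all arrays of TAF-tib42 alone and on 0 to 2 arrays of the other sources, so its range of 0.20 has little behind it.

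Among membrane-bound semaphorins Sema7a and Sema6d stood out. Sema7a, anchored by a lipid and acting on Plxnc1 and on integrins, had log2 ratios of -0.0033, 0.05 and 0.08 in TAF-el4 and of -0.34, -0.15 and -0.43 in TAF-tib48. The NSF, TAF-tib6 and TAF-tib42 arrays lay between -0.78 and -0.45. It rose in TAF-el4 by 0.80 against TAF-tib6 (SE 0.07, adjusted p = 7.3e-08) and by 0.61 against NSF, and in TAF-tib48 by 0.45 against TAF-tib6. Its receptor Plxnc1 was dim and had no F-test call. Sema6d was lowest in TAF-tib6 at -0.03 ± 0.04 and highest in NSF at 0.51 ± 0.06, and rose in each resistant source against TAF-tib6, by 0.21 in TAF-el4, 0.34 in TAF-tib42 and 0.48 in TAF-tib48. The difference of TAF-el4 was 0.10 with slide run as a block (adjusted p = 0.66), and that of TAF-tib42 0.26 (adjusted p = 0.058). The TAF-el4 call was also lost without replicate 1 (0.17, adjusted p = 0.080) and with the mean of both probes (0.14, adjusted p = 0.064). The second Sema6d probe was near background and spanned 0.08. Sema4b, Sema4g and Sema5a were called with ranges of 0.16 to 0.17. Sema4d, its receptor Plxnb1, and Sema4a, Sema4f, Sema5b, Sema6a, Sema6b and Sema6c had no F-test call. The probe used for Plxnb1 spanned 0.09, whereas its dimmer second probe spanned 0.45, from -0.27 in NSF to -0.72 in TAF-tib42.

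**Figure D4:**
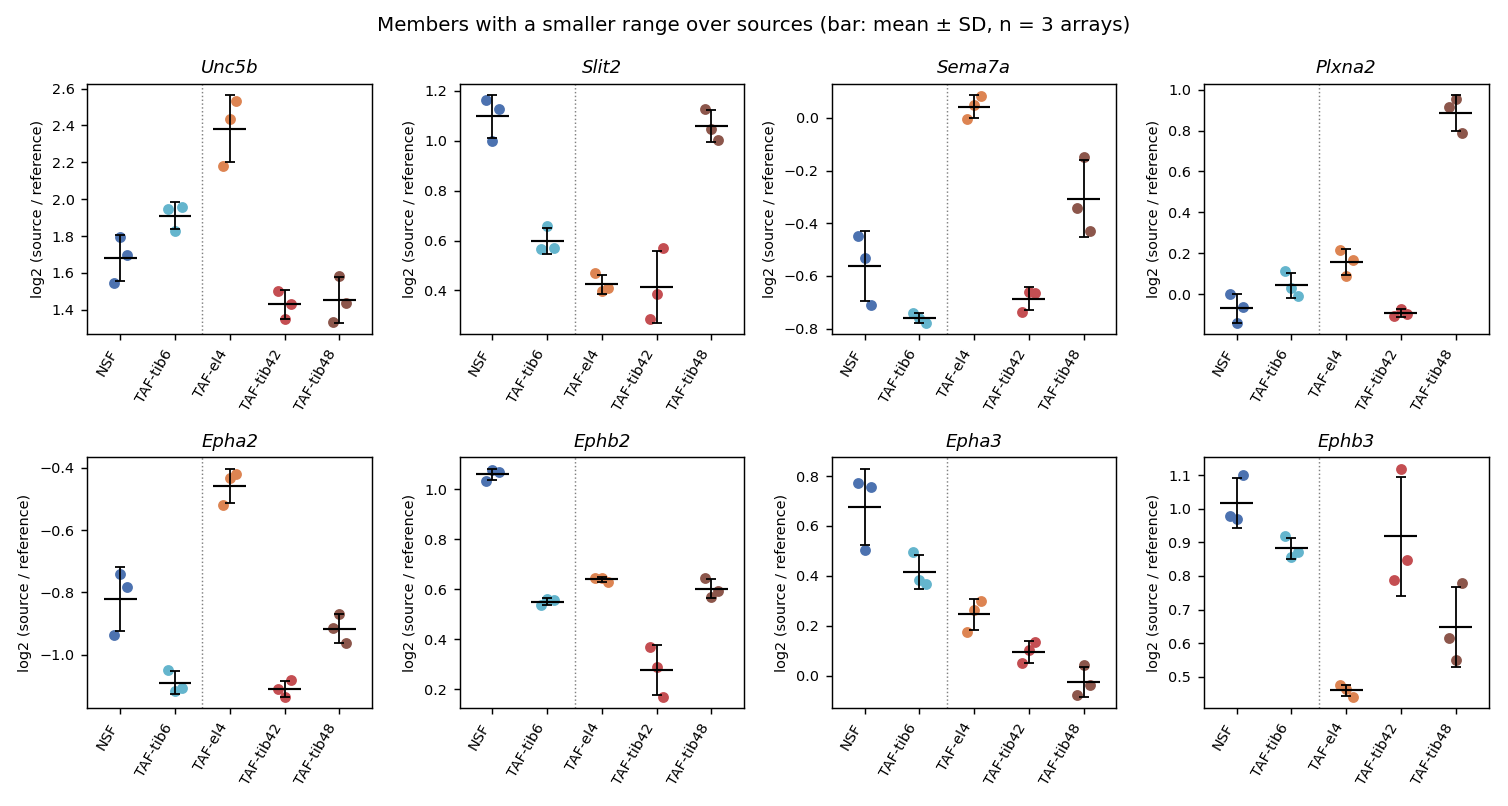
Log2 ratio to the reference (y axis) of 8 members in the 5 sources (x axis; sensitive left of the dotted line), with points for the 3 arrays and black bars for mean ± SD; each panel has its own y axis. TAF-el4 is highest for Unc5b, Sema7a and Epha2 and lowest for Ephb3, TAF-tib48 is highest for Plxna2, and NSF and TAF-tib48 are both high for Slit2.

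Slit2, the secreted repellent that acts through Robo receptors, was high in a sensitive and a resistant source. The arrays read 1.17, 1.001 and 1.13 in NSF and 1.13, 1.05 and 1.002 in TAF-tib48. They were 0.57, 0.66 and 0.57 in TAF-tib6, 0.47, 0.40 and 0.41 in TAF-el4, and 0.29, 0.38 and 0.57 in TAF-tib42. Slit2 rose in TAF-tib48 by 0.46 against TAF-tib6 (SE 0.06, adjusted p = 2.0e-05), and against NSF it differed by -0.67 in TAF-el4 and by -0.68 in TAF-tib42 (adjusted p = 3.0e-07 and 1.4e-07). The difference of TAF-tib42 from TAF-tib6 was -0.18 (adjusted p = 0.037), and this call was lost in 9 of 15 other settings, with -0.29 under slide run as a block (adjusted p = 0.14) and -0.14 without replicate 1 or without replicate 2. A second probe also had NSF and TAF-tib48 above the rest, with a range of 0.67. The pericyte marker Mcam was high in the same sources, whereas Cspg4 was highest in TAF-tib42 and Rgs5 was lowest in NSF. The part of such cells in the values of Slit2 was not tested. Slit1 had no F-test call. Of the receptors, Robo1 was called with a range of 0.16. Robo4, known from endothelium, was called with a range of 0.26 and the highest mean, 0.40 ± 0.04, in TAF-tib48. The endothelial markers Emcn, Cdh5 and Tek were also highest in TAF-tib48, whereas Pecam1, Kdr, Cldn5, Tie1 and Vwf had no call. The part of such cells in the values of Robo4 was not tested. Robo2 and Robo3 had no call.

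Unc5b, a netrin receptor found on vessel tip cells, was highest in TAF-el4, whereas the netrins themselves had no F-test call. Its log2 ratios were 2.18, 2.43 and 2.53 in TAF-el4, 1.55, 1.80 and 1.70 in NSF, and 1.95, 1.83 and 1.96 in TAF-tib6. They were 1.50, 1.35 and 1.43 in TAF-tib42 and 1.34, 1.58 and 1.44 in TAF-tib48. The TAF-el4 arrays lay above all others. Unc5b rose in TAF-el4 by 0.70 against NSF (SE 0.08, adjusted p = 4.7e-06) and by 0.47 against TAF-tib6 (adjusted p = 3.4e-04), and the latter was 0.80 with slide run as a block. It differed from TAF-tib6 by -0.48 in TAF-tib42, or by -0.31 with slide run as a block (adjusted p = 0.18), and by -0.46 in TAF-tib48. Unc5a was also highest in TAF-el4, at 0.36 ± 0.05 against 0.14 to 0.21 elsewhere. Unc5c had no F-test call. Ntn1 and Ntn4 were dim, with ranges of 0.08 and 0.17.

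Whether any member went with the labelled response was asked over the 5 sources, with the source as the unit. No member was called by limma on the source means, where 0.00319% of all genes were (1 gene). At an unadjusted p under 0.05 there were 5 members (Epha4, Efna5, Epha3, Sema3f and Ntn4), or 9.09%, against 9.22% of all genes. The source means did not overlap for 11 members, or 20.0%, against 26.6% of all genes. Of these, 3 lay above in all resistant sources (Ntn4, Sema3e and Sema4f), against 13.6% of all genes, and 8 lay below (Epha4, Efna5, Epha3, Sema3f, Sema6a, Efna4, Slit1 and Efna2), against 13.0%. For Epha4 the resistant mean was 0.91 ± 0.56 (SD over 3 sources) and the sensitive mean 2.39 ± 0.05 (SD over 2), a difference of -1.48 (SE 0.32, adjusted p = 0.34). Efna5 differed by -1.22 (SE 0.42, adjusted p = 0.48), Sema3c by -0.68 and Epha1 by -0.63. Without NSF the difference of Efna5 was -0.66. Without TAF-tib48 those of Sema3c and Epha1 were -0.40 and -0.17, and without TAF-el4 that of Epha1 was -1.06. In the other direction Sema7a differed by 0.34, Plxna2 by 0.33, Sema3e by 0.19 and Ntn4 by 0.13, none of them called. Without TAF-tib48 the difference of Plxna2 was 0.04, without TAF-el4 that of Sema7a was 0.16, and without TAF-tib6 that of Sema3e was 0.08. The median difference was -0.0044 over the members and -0.0019 over all genes.

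Each resistant source was next set against TAF-tib6. In TAF-el4, 19 members were called, or 34.5% of 55, against 20.6% of all genes. Of these, 10 rose and 9 fell, where 11.4% and 9.22% of all genes did, and 1 was at least 2-fold (0.479% of all genes). Sema7a, Epha2 and Unc5b rose most, and Epha4, Sema3c and Ephb3 (-0.42) fell most. Only 4 rose and 3 fell when slide run was a block, and 10 members were called without replicate 1 of every source and 12 without replicate 2. Of all genes 1716, 4246 and 4486 were called in these settings, instead of 6447. In TAF-tib42, 3 rose and 16 fell, where 24.8% of all genes were called, 11.7% higher and 13.1% lower, and 3 members were at least 2-fold (0.843% of all genes). Those that rose were Sema6d, Efnb1 (0.33) and Sema3e (0.24), and Epha4, Efnb2 and Efna5 fell most. The counts were 1 and 5 with slide run as a block and 11 and 17 with the Cy5 channel alone, and 11 members in all were called without replicate 1. Of all genes 3044, 9813 and 4919 were called in these settings, instead of 7783. In TAF-tib48, 6 rose and 11 fell, where 24.6% of all genes were called, 11.5% higher and 13.2% lower, and 3 members were at least 2-fold (0.747%). Plxna2, Sema6d and Slit2 rose most, and Epha1, Sema3c and Epha4 fell most. Within the slide run that holds arrays of both sources 5 rose and 8 fell, where 5043 of all genes were called.

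The 3 comparisons share the TAF-tib6 arrays. Called higher in all 3 were 2 members, Sema3e (0.24 to 0.34) and Sema6d, where 2.87% of all genes were. The Sema6d call in TAF-el4 was lost in 3 of 15 other settings, and that in TAF-tib42 in 1 of 15. Called lower in all 3 were 3 members, Epha4, Sema3c and Sema6a (-0.23 to -0.22), where 3.54% of all genes were. The Sema3c call in TAF-tib42 was lost in 3 of 15 other settings. Sema6a had no F-test call (adjusted p = 0.052). Its second probe differed from TAF-tib6 by 0.09 in TAF-el4, -0.01 in TAF-tib42 and 0.08 in TAF-tib48.

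Against NSF, 5 members rose and 11 fell in TAF-el4, where 17.4% of all genes were called, 8.79% higher and 8.57% lower, and 2 were at least 2-fold (0.472%). Within the slide run that holds arrays of both sources 6 rose and 10 fell, where 5158 of all genes were called. In TAF-tib42, 3 rose and 14 fell, where 23.9% of all genes were called, 10.8% higher and 13.2% lower, and 3 were at least 2-fold (0.907%). The 3 that rose, Ephb1 (0.18), Sema5b (0.13) and Sema4a (0.13), differed little, and Sema5b and Sema4a had no F-test call. Without replicate 1, 2 or 3 of every source, 0 rose and 12 fell, 0 rose and 13 fell, and 1 rose and 11 fell. Of all genes 4543, 4891 and 6300 were called there. The counts were 1 and 9 with slide run as a block, 7 and 11 with the Cy5 channel alone, and 5 and 12 with the scanner's own ratio. Of all genes 2428, 6263 and 6541 were called in these settings, instead of 7500. In TAF-tib48, 8 rose and 10 fell, where 26.1% of all genes were called, 11.7% higher and 14.5% lower, and 4 were at least 2-fold (0.970%). The counts were 1 and 8 with slide run as a block, and 4 and 12 after median centring, where 2034 and 7764 of all genes were called instead of 8190. These comparisons share the NSF arrays. Epha4, Efna5, Epha3, Ephb2 and Sema3f fell in all 3, or 5 members, where 3.72% of all genes did, and 0 members rose in all 3, where 1.98% did. Epha4 was the 1 member called lower in all 6 pairs of a resistant and a sensitive source, where 1.52% of all genes were, and 0 members were called higher in all 6, where 1.08% were.

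**Figure D5:**
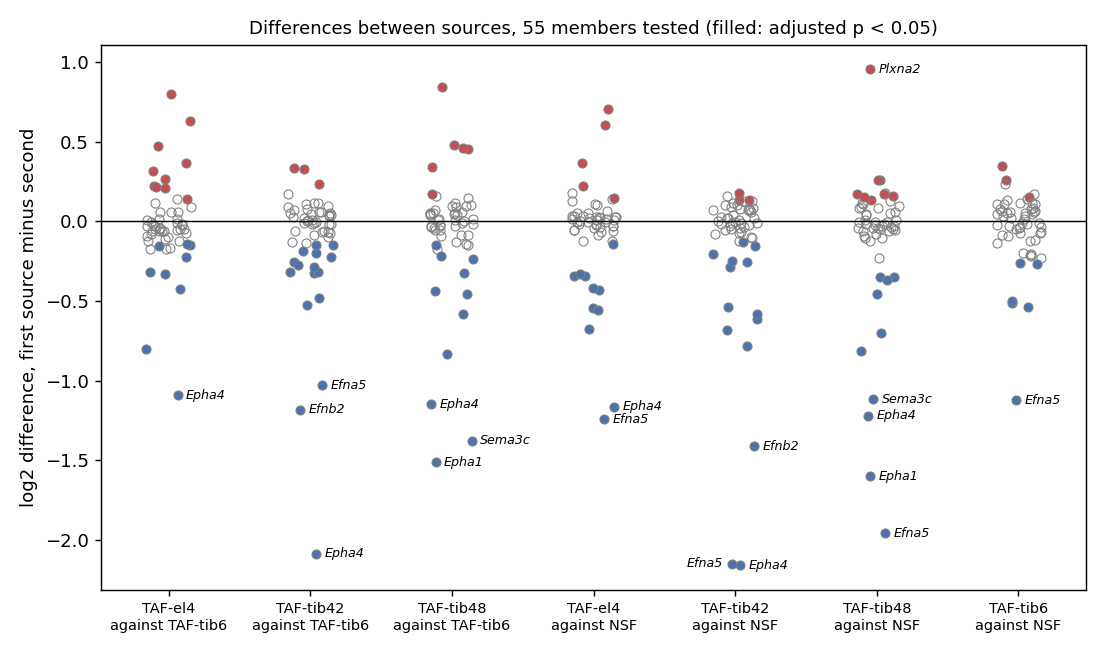
Log2 difference between sources (y axis; first source minus second) of the 55 members tested in 7 pairs of sources (x axis), with filled points where the adjusted p was under 0.05 (red higher, blue lower) and open points elsewhere. The points furthest from 0 lie below it, with Epha4 at -2.16 and Efna5 at -2.15 in TAF-tib42 against NSF, and no member reaches a difference of 1 above 0.

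The 2 sensitive sources differed in 9 members, where 11.3% of all genes were called. In TAF-tib6, 3 were higher and 6 lower than in NSF, where 4.62% and 6.69% of all genes were, and Efna5 alone was at least 2-fold apart (0.268% of all genes). Efna5 differed by -1.12, Sema6d by -0.54, Ephb2 by -0.51, Slit2 by -0.50, Epha2 by -0.27 and Epha3 by -0.26. Sema3a rose by 0.35, Sema3c by 0.26 and Plxna4 by 0.15. The Epha3 call was lost in 8 of 15 other settings, and those of Epha2 and Sema3c in 2 of 15 each. No slide run holds both sources, and with slide run as a block Efna5 alone kept its call, where 422 instead of 3545 of all genes were called.

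The resistant sources also differed among themselves, in contrasts added after the first values were seen. TAF-el4 was higher than TAF-tib42 in 12 members and lower in 6, where 23.0% of all genes were called, 13.3% higher and 9.66% lower, and Efnb2 was the 1 member at least 2-fold apart (0.884%). TAF-el4 was higher than TAF-tib48 in 11 and lower in 10, where 23.8% were called, 14.1% higher and 9.73% lower, with Epha1 at least 2-fold apart (0.616%). TAF-tib42 was higher than TAF-tib48 in 7 and lower in 12, where 14.3% were called, 6.62% higher and 7.63% lower, with Sema3c at least 2-fold apart (0.584%), at a difference of 1.12.

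Other genes of these pathways were taken from 2 lists. Of 19 co-receptors and related ligands tested, 7 were called by the F-test, where 43.0% of all genes were. In the comparisons of TAF-el4, TAF-tib42 and TAF-tib48 with TAF-tib6, where 20.6%, 24.8% and 24.6% of all genes were called, 2, 3 and 0 of them were called higher and 2, 4 and 4 lower. Ptk7, a co-receptor of plexins and Wnt signals, lay between 0.73 and 0.86 in NSF, TAF-tib6 and TAF-el4, and differed from TAF-tib6 by -0.86 in TAF-tib42 and by -1.02 in TAF-tib48, both called. Rgma, a ligand of neogenin, fell against TAF-tib6, with differences of -0.72 in TAF-el4, -0.40 in TAF-tib42 and -0.94 in TAF-tib48. Gpc1, a heparan sulfate proteoglycan, rose by 0.94 in TAF-el4 against TAF-tib6, and Flrt3, which binds Unc5 and Robo receptors, was highest in NSF at 0.25. Of 35 intracellular effectors tested, 25 were called by the F-test, and 7, 2 and 5 were called higher and 6, 7 and 8 lower in the same comparisons. Nck2, an adaptor that binds the tails of B-type ephrins and Eph receptors, was -0.09 in NSF, -0.18 in TAF-tib6, -0.41 in TAF-el4, -1.84 in TAF-tib42 and -1.19 in TAF-tib48. It differed from TAF-tib6 by -1.66 in TAF-tib42 (SE 0.05, adjusted p = 6.5e-14) and by -1.01 in TAF-tib48 (adjusted p = 1.1e-10). Like Efnb2, it was thus lowest in TAF-tib42. Dpysl3, a mediator of semaphorin signals, rose in TAF-tib48 by 0.68, Rnd1, a GTPase that binds plexins, differed by -0.46 in TAF-tib42 and by -0.39 in TAF-tib48, and Enah, an actin regulator, rose in TAF-el4 by 0.43, all against TAF-tib6.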

How the data were processed

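RNA of 5 fibroblast sources was hybridised against a reference RNA on 15 arrays. Per the file headers, the deposited scanner files hold spot intensity values of each dye (mean signal, median background) and the scanner's own log10 ratio. The authors' deposited table holds log2 ratios that follow those of the scanner. A protocol label and the submitters' processing notes name different versions of Agilent Feature Extraction, the latter 8.5.1.1. Background was removed by normexp (offset 50) in limma 3.58.1 under R 4.3.3, normalised by loess within arrays, and averaged per probe without outlier flags. The offset understates changes of dim genes. A gene was tested if Cy5 was well above background on all 3 arrays of a source, which left 31325 genes. Source pairs were contrasts in 1 limma fit of 15 arrays; resistant and sensitive sources were compared on 5 source means; Benjamini-Hochberg adjustment ran over all genes, with calls at 0.05. Genes named were every member and called examples of 2 lists. Members and lists were chosen with earlier results of these data known. The steps were tested on simulated data. Of 30 correlations between deviations of same-numbered arrays, 2 were over 0.1, so samples were not paired by replicate number in the main fit. Whether such arrays were prepared together cannot be told from these correlations.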

Additional observations from a re-analysis of the deposited data

Results flagged for a closer look

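Of the members, 6 were called in opposite directions in 2 resistant sources against the same sensitive source. They also differed between these resistant sources in contrasts added after the first values were seen (limma, adjusted over all genes). Opposite calls in the same fit all but fix such a contrast, so its p-value is no further support. Against TAF-tib6, Efnb2 was higher in TAF-el4 and lower in TAF-tib42 and TAF-tib48, and TAF-el4 exceeded them by 1.55 (adjusted p = 2.0e-11) and 0.95 (adjusted p = 2.1e-08). Epha1 had the same pattern, and TAF-el4 exceeded TAF-tib42 by 0.79 and TAF-tib48 by 1.78. The call of TAF-el4 against TAF-tib6 was lost for Efnb2 in 1 of 15 other settings, slide run as a block, and for Epha1 in 4 of 15. Unc5b, also higher in TAF-el4, exceeded TAF-tib42 by 0.95 and TAF-tib48 by 0.93, and its call in TAF-tib42 was lost with slide run as a block. Against NSF the calls for Unc5b were opposite too, but that of TAF-tib42 (-0.25, adjusted p = 0.034) was lost in 7 of 15 other settings, among them without replicate 2 (-0.15, adjusted p = 0.33) and without replicate 3 (-0.24, adjusted p = 0.12). Slit2 was lower in TAF-tib42 and higher in TAF-tib48, which differed by -0.65, and the first call (-0.18, adjusted p = 0.037) was lost in 9 of 15 other settings. Against NSF, Epha2 was higher in TAF-el4 and lower in TAF-tib42, a difference of 0.65. Ephb4 was lower in TAF-tib42 and higher in TAF-tib48 (adjusted p = 0.040; not recomputed under other settings), a difference of -0.41.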

How the results depend on the processing

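The number of members called by the F-test was 28 to 32 under the other ways to correct, scale or filter, 21 to 24 without 1 replicate of every source and 20 with slide run as a block. Over all genes the numbers were 12155 to 13636, 9198 to 11000 and 9651 in the same order. With Cy5 alone 30 members were called, of which 21 were also called with the ratio of both dyes, and after median centring 26 of 28 were. Single differences were recomputed only for members with an F-test call and a wide range, in comparisons already called, which favours a kept sign. The largest differences of resistant against sensitive sources were added, which had no call to lose. Filter settings and the replicate block could change only the p-value. Of 1802 recomputed values 1691 kept their direction and their side of the threshold, and none reversed its sign. The other 111 lost the call, 27 of them with slide run as a block and 12 with Cy5 alone. With slide run as a block, the members called numbered 7 instead of 19 for TAF-el4 against TAF-tib6, and 6 instead of 19 for TAF-tib42 against TAF-tib6. They numbered 10 instead of 17 for TAF-tib42 against NSF, 9 instead of 18 for TAF-tib48 against NSF and 1 instead of 9 for TAF-tib6 against NSF. All genes called fell too, in the same order from 6447 to 1716, 7783 to 3044, 7500 to 2428, 8190 to 2034 and 3545 to 422. The cause was not tested. For TAF-tib6 against NSF, 17 members were called with Cy5 alone and 16 after median centring, where 4637 and 6138 of all genes were. Without 1 replicate of every source, TAF-el4 against TAF-tib6 gave 10 to 14 members and TAF-tib42 against TAF-tib6 gave 11 to 17, the lowest without replicate 1 in both. Over all genes the numbers were 4246 to 4845 and 4919 to 6134. With the replicate block 30 members were called by the F-test, 29 of them the same. For resistant against sensitive sources 0 members were called under each setting run, which did not include slide run as a block.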
